A study of Mus musculus with 4 samples.

Results

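Early differentiating granule neurons were examined in 4 mouse medulloblastomas. They were 208 cells of 2288 that passed the filters (at least 500 UMIs, at least 200 genes and a mitochondrial share of at most 10%), out of 6734 deposited barcodes. A UMI, or unique molecular identifier, stands for 1 captured mRNA molecule. A cell was a member if it had at least 3 UMIs summed over the 5 early markers Neurod1, Neurod2, Cntn2, Dpysl3 and Nhlh1. It also had to have at most 1 UMI over the 6 late neuronal genes Grin2b, Gria2, Snap25, Syt1, Meg3 and Rbfox3, and at most 1 UMI over the 9 mitotic genes Mki67, Top2a, Cenpf, Cenpe, Ube2c, Prc1, Tpx2, Hmmr and Aspm. These measured values chose the members, so their share and their levels of these 20 genes are described without a test.

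The 4 tumours were taken at postnatal day 16 from mice without treatment that carried hGFAP-Cre and SmoM2 and were homozygous for the floxed alleles Prkaa1fl/fl and Prkaa2fl/fl. They were profiled by Drop-seq, a droplet method that reads the 3′ ends of mRNA. Cre under the human GFAP promoter, which is active in neural progenitors, turns on SmoM2, a constantly active Smoothened, and deletes the floxed Prkaa1 and Prkaa2, which encode the kinase subunits of AMPK, the AMP-activated energy sensor. The labels give these alleles for all 4 tumours, and tumours with intact Prkaa1 and Prkaa2 were not analysed here. The labels number the tumours 1 to 4 and do not tie the numbers to animals in more detail, so p-values concern these 4 libraries. The main tests fitted the tumour as a block, which removed level differences between libraries. Their p-values therefore measure how much the differences between groups of cells varied from library to library.

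Cerebellar granule neurons arise from progenitors of the outer cerebellar surface that divide under Sonic hedgehog (SHH) signalling, the pathway that SmoM2 holds on. A progenitor that leaves the cell cycle turns on bHLH transcription factors such as Neurod1 and Nhlh1. It then extends the axons that become the parallel fibres, with Cntn2 (the axonal adhesion protein TAG-1) on their surface, migrates inward, and only afterwards builds synapses with receptor subunits such as those encoded by Grin2b and Gria2. In SHH medulloblastoma part of the tumour follows this course, and the cells examined here lie between the dividing and the synaptic stages by the genes that chose them.

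The bHLH factors among the markers act on E-boxes, and NeuroD factors favour the E-box CAGATG. The 2 promoters below are shown because these marker genes hold that motif in the 250 bases before their RefSeq start (GRCm38.p6), with the motif in capitals. Nhlh1 lies on the minus strand with its window at chr1:172057597-172057846 and the motif 203 bases before the start. Neurod2 lies on the minus strand with its window at chr11:98329646-98329895 and the motif 118 bases before the start.
Nhlh1: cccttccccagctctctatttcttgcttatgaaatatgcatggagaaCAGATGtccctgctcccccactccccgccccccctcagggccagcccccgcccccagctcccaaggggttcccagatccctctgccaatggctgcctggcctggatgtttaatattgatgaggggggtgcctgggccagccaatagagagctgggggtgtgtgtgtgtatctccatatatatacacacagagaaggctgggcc
Neurod2: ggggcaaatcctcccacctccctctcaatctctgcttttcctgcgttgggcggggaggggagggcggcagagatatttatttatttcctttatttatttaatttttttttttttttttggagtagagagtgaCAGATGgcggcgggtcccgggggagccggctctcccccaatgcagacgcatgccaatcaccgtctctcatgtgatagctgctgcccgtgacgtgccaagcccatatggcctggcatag
CAGATG and the palindrome CAGCTG were searched on both strands. The window of Nhlh2, a paralog of Nhlh1 that the rule did not use, held CAGATG 127 bases before its start, and the windows of Neurod1 and Cntn2 held neither motif. The window of Dpysl3, the remaining marker, was not looked at on its own. Of 32851 promoter windows of the same length, 14.4% held CAGATG on either strand, 13.0% held CAGCTG and 25.5% held one or the other. A match describes the sequence only and was not tied to binding.

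The libraries differed in ways that the shared group label does not give. Per-gene counts of tumours 1 and 2 were close to each other, as were those of tumours 3 and 4 (chi-square per degree of freedom 3.80 and 3.51), and the 4 pairs across gave 14.0 to 23.4. The median mitochondrial share in members was 6.83% and 7.58% in tumours 1 and 2 and 2.17% and 1.89% in tumours 3 and 4. The Cre feature had 4 UMIs in the 370 filtered cells of the library labelled tumour 1 (10.5 CPM, UMIs of the feature per 1000000 UMIs), against 740, 962 and 1623 CPM in tumours 2 to 4, so this library goes against its Cre label, and counts of calls and the member share are also given without it. The SmoM2-EYFP feature did not set it apart, at 23.6 CPM (9 UMIs) against 46.1, 17.1 and 15.3 CPM. Members held 0, 12, 39 and 116 Cre UMIs in tumours 1 to 4. Prkaa1 had 0 UMIs in members, which allows up to 17.8 CPM, and Prkaa2 had 1, 0, 4 and 2 UMIs; at these counts, and with 3′ reads that can lie outside a deleted exon, neither gene checks the deletion. Between filtered cells of different tumours no barcode was shared.

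Members made up 5.14% of filtered cells in tumour 1 (19 of 370, exact 95% interval 3.12 to 7.90) and 5.15% in tumour 2 (15 of 291, 2.91 to 8.36). In tumour 3 they were 11.4% (64 of 561, 8.90 to 14.3), and in tumour 4 10.3% (110 of 1066, 8.56 to 12.3). The mean was 8.004% ± 3.33 (SD, n = 4), and 8.96% without tumour 1. The intervals cover counting error only. The distance between the pairs of tumours moved with the gate. With gates read after thinning to 500 UMIs the shares were 7.03%, 8.93%, 11.9% and 10.8%, and with Neurod1 left out of the gate they were 3.51%, 2.41%, 3.57% and 4.32%, so the pairs lay closer. When cells needed 1000 UMIs and 500 genes they were 0.901%, 3.41%, 6.47% and 6.04%, with 0 late and mitotic UMIs 1.62%, 0.687%, 3.74% and 4.13%, and with at least 4 early-marker UMIs 3.78%, 3.09%, 8.91% and 8.44%, and the ratio between the pairs was then larger.

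The order was the opposite for early markers on their own. Cells with at least 3 early-marker UMIs were 44.9%, 41.2%, 29.8% and 28.0% of filtered cells in tumours 1 to 4. Members were 11.4% and 12.5% of those cells in tumours 1 and 2, and 38.3% and 36.8% in tumours 3 and 4. Of all 752 such cells, 318 had too many late UMIs only, 110 too many mitotic UMIs only and 116 too many of both. In tumour 1 the late limit alone took out 105 of 166 cells. The lower member share in tumours 1 and 2 therefore came with more early-marker cells over the limits, most of them over the late limit, and not with fewer early-marker cells.

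**Figure D1:**
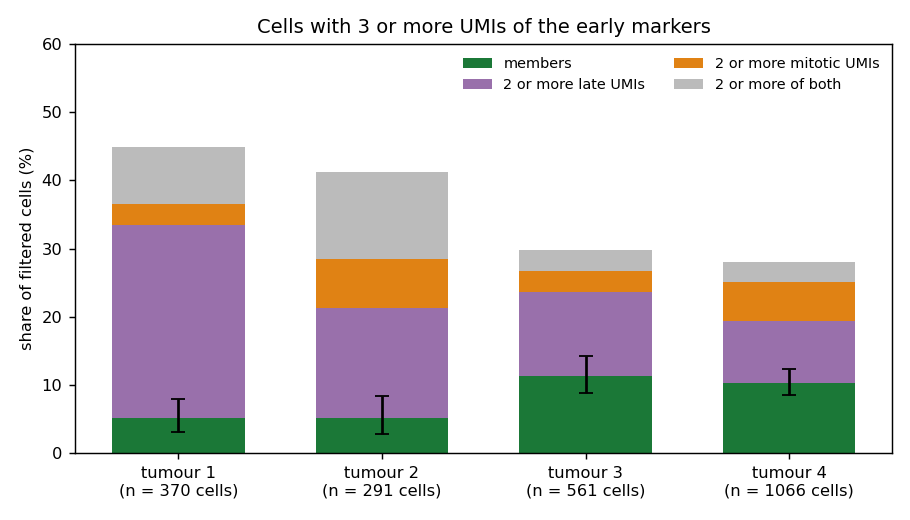
Share of filtered cells with at least 3 UMIs of the 5 early markers, in percent, by tumour, split into members (green) and cells with 2 or more late UMIs, mitotic UMIs or both. Black bars are exact 95% intervals of the member share. Members reach 11.4% in tumour 3 and 10.3% in tumour 4 but 5.14% and 5.15% in tumours 1 and 2, where the whole bars are taller.

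The thresholds cut through a continuous range of counts. Of the 208 members, 45 had exactly 3 early-marker UMIs, and 59 cells that met the other limits had 2. One late UMI was present in 110 members and none in 98, and 105 further cells were left out for having 2. One mitotic UMI was present in 43 members and none in 165, and 28 further cells were left out for having 2. Members with neither a late nor a mitotic UMI numbered 73. Median depth was 717, 642, 724 and 749 UMIs per member in tumours 1 to 4. It was 785, 783, 786 and 1019.5 per late cell and 767, 678.5, 925 and 1158 per mitotic cell, so members were the shallowest class in each tumour. Single deep cells weighed on the sums of tumour 1. The deepest late cell there held 11261 of 106343 late-class UMIs, and the deepest mitotic cell 4384 of 35087. The deepest member of that tumour held 1347 UMIs.

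Neurod1, the bHLH factor that drives granule neuron differentiation, was found in 89.5%, 86.7%, 95.3% and 91.8% of members of tumours 1 to 4, at 3925, 4046, 4924 and 4316 CPM. Cntn2 was found in 94.7%, 80%, 42.2% and 44.5% and Nhlh1 in 42.1%, 20%, 50% and 60.9%. Dpysl3, a collapsin response mediator protein of growing axons, was found in 26.3% to 33.6% and Neurod2 in 5.26% to 8.18%. Neurod1 and Cntn2 occurred together in 95 members, Neurod1 without Cntn2 in 97, Cntn2 without Neurod1 in 11, and neither in 5. UMIs of a single marker were all that 29 members carried, 26 of them of Neurod1, and 97 carried 2 markers, 65 carried 3, 16 carried 4 and 1 carried all 5.

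The same rule picked cells of different marker makeup in the 2 pairs of libraries. Cntn2 stood at 4140 and 3186 CPM in members of tumours 1 and 2 and at 848 and 801 CPM in those of tumours 3 and 4. It gave 44.3% and 38.9% of all early-marker UMIs in tumours 1 and 2 (intervals 35.6 to 53.2 and 29.1 to 49.5) and 11.4% in both tumours 3 and 4 (8.33 to 15.1 and 9.04 to 14.0). Nhlh1 went the other way, with 714 and 344 CPM against 1090 and 1282 CPM, or 7.63% and 4.21% of marker UMIs against 14.6% and 18.2%. The Cntn2 difference was present in late cells too, at 2492 and 2007 CPM in tumours 1 and 2 and 698 and 997 CPM in tumours 3 and 4. Dpysl3 differed least among the 5, at 444 to 534 CPM in all 4 tumours.

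**Figure D2:**
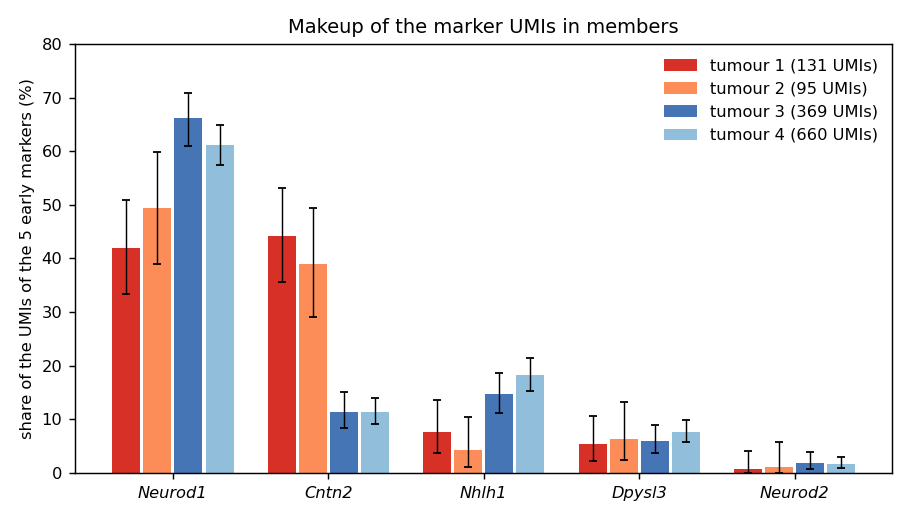
Share of the early-marker UMIs of members that each of the 5 markers contributed, in percent, by tumour, with exact 95% intervals. Cntn2 is above 35% in tumours 1 and 2 and at 11.4% in tumours 3 and 4, while Neurod1 and Nhlh1 are lower in the first pair.

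The granule lineage part of the label, and not the stage, was then checked on Zic1, a gene outside the rule. Zic1 is a zinc-finger factor of granule progenitors and neurons. It had a UMI in 59.6% of members after each cell was thinned to 500 UMIs (70.2% before). Of 13 microglial or vessel cells it was found in 7.69% after thinning (1 cell, exact interval 0.195 to 36.0) and in 30.8% before. These 13 cells, picked by at least 4 markers of those types and deeper at a median of 2693 UMIs, gauge free RNA. Stmn2 was found in 56.7% of members and in 23.1% of those cells after thinning. Neurod1, which the rule used, was found in 23.1% of them after thinning. Zic1 was also found in 53.4% of late cells and 33.6% of mitotic cells after thinning, so it does not mark the early stage.

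Markers of other cell types were counted in members. The tables held 2 of 8 markers of GABAergic interneurons and Purkinje cells, Calb1 and Pcp2, both at 0, which allows up to 1.44% of members with a UMI. Astrocyte and radial glia markers summed to 7 UMIs, with Gfap, Aldh1l1 and Sox2 at 0, and ranged over tumours from 0 to 64.1 CPM in members and from 131 to 451 CPM in late cells. Microglial markers summed to 2 UMIs with 6 of 8 at 0, and mural and fibroblast markers to 1 UMI with 6 of 7 at 0. Endothelial markers summed to 8 UMIs in members, against 1 UMI in late cells and 2 in mitotic cells. They came to 0, 86.1, 20.2 and 64.1 CPM in members of tumours 1 to 4 and to 278, 156, 28.5 and 45.9 CPM in all filtered cells. Oligodendrocyte-lineage markers summed to 60 UMIs, among them 15 each of Mbp and Pdgfra, with Olig1, Sox10 and Mog at 0. They came to 246 to 856 CPM in members, 284 to 1054 CPM in late cells and 257 to 1056 CPM in mitotic cells. At least 1 of them was present in 48 of the 208 members. Members of tumour 1 were at 856 CPM against 448 CPM in all filtered cells of that tumour. In tumours 2 to 4 members were lower, at 344, 424 and 246 CPM against 1442, 1514 and 874 CPM in all filtered cells. One member had 3 or more endothelial markers and 1 had 3 or more oligodendrocyte markers. Of the markers of unipolar brush and nuclear neurons, Slc17a6 (vesicular glutamate transporter 2, which developing granule neurons also carry) had 65 UMIs, Eomes 6 and Calb2 2. These markers were present in 51 members and summed to 500, 1119, 424 and 342 CPM in members of tumours 1 to 4, against 484, 450, 164 and 148 CPM in all filtered cells. Late cells were at 583, 679, 393 and 298 CPM, above members in tumour 1 and below them in tumours 2 to 4. The part of these transcripts in the results below was not tested.

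Members were then compared with mitotic cells of the same tumours. The 464 mitotic cells (37, 40, 121 and 266) had at least 3 UMIs of the mitotic genes and at most 1 UMI each of the early and late sets. UMIs were summed per tumour and class, giving 11615 to 93602 per sum for members and 29350 to 341017 for mitotic cells, and tested with edgeR's quasi-likelihood test with the tumour as a block. The 20 genes of the rule were left out, and genes that track them in the same cells were not. Mitotic cells were chosen on mitotic genes that members had to be low in, and members on early markers that mitotic cells had to be low in. The gates thus favoured falls of genes of dividing cells and rises of neuronal genes, whose folds and p-values describe the chosen classes. Of 1217 genes tested, 181 were higher in members (14.9%) and 208 were lower (17.1%) at adjusted p under 0.05, so 32% were called. With upper-quartile scaling the split was 199 higher and 148 lower, and the median log2 fold over all genes moved from -0.10 to 0.02, so folds below are best read against that shift. Without the tumour as a block 112 genes were called, and without the library labelled tumour 1 374 of 1305 were called. In tumours 3 and 4 alone 674 of 2644 were called and in tumours 1 and 2 alone 35 of 723. Among the called genes, 73 were in the lists or named by the rule. Of these, 15 kept their call in every alternative that tested them, 38 lost it in 1 to 3 and 20 in 4 or more.

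Of 20 listed bHLH and other proneural factors, 7 had enough counts to be tested and 6 of them rose. Their median log2 fold was 1.16, against -0.10 over all genes. Counts over tested genes are a description, because a gene can pass the filter through the class in which it is high. Nhlh2, the paralog whose promoter window holds the same E-box as that of Nhlh1, stood at 642, 517, 464 and 919 CPM in members of tumours 1 to 4. In mitotic cells it stood at 57.0, 307, 99.99 and 220 CPM, so the classes did not overlap. Its log2 fold was 1.91 (SE 0.27, edgeR adjusted p = 3.06e-09).

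Myt1, a zinc-finger factor of neuronal differentiation, rose by 3.04 on the log2 scale (SE 0.42, edgeR adjusted p = 2.04e-09). It was at 642, 430, 303 and 288 CPM in members and at 23.1 to 44.0 CPM in mitotic cells. Its relatives Myt1l (log2 fold 1.89) and St18 (1.16) also rose, as did Id2, an inhibitor of bHLH factors (1.01), and Tcf4, an E protein that pairs with them (0.51). Tcf4 lost its call in 10 of 21 alternatives, Id2 in 6 of 19 and St18, which was higher in 3 of 4 tumours, in 5 of 20. Leaving out tumour 4 was enough for each, as was tumour 2 or 3 for Tcf4. Tcf12, another E protein, had a log2 fold of -0.42 and was not called (edgeR adjusted p = 0.415). Atoh1, the bHLH factor that keeps granule progenitors dividing, had too few counts to be tested. It had 1, 0, 1 and 2 UMIs in members of tumours 1 to 4 and 6, 2, 18 and 40 in mitotic cells.

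Of 20 listed genes of granule lineage identity, 9 were tested, 6 rose and 3 did not pass, with a median log2 fold of 0.77. Zic1 was at 1570, 1550, 1574 and 1688 CPM in members, the narrowest relative spread of the genes plotted, and at 613 to 877 CPM in mitotic cells, with a log2 fold of 0.92 (SE 0.19, edgeR adjusted p = 5.1e-05). Lhx1, a LIM-homeodomain factor, was at 1213, 1033, 1009 and 823 CPM in members and at 354 to 716 CPM in mitotic cells (log2 fold 0.95, edgeR adjusted p = 0.000212). Both genes were above every mitotic sum in all 4 tumours. Pde1c, a calmodulin-dependent phosphodiesterase (1.22), the homeobox factor Uncx (1.20), Pax6 (0.77) and Zic4 (0.71) were the other called members of the list. The Zic4 call was lost in 11 of 20 alternatives, among them without tumour 2 or 4, and the Pax6 call in 7 of 20, among them without tumour 3 or 4. Zic1 lost its call in 5 of 21, Lhx1 in 4 of 21 (among them without tumour 3) and Uncx in 4 of 21. Pax6 was higher in 3 of 4 tumours, since tumour 2 had 2 UMIs of it in members. Barhl1, a homeobox factor of granule cells, was not called (0.22, edgeR adjusted p = 0.546).

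Among 5 tested SoxC and nuclear factor I genes, 3 rose and 1 fell. Nfib, a factor that promotes granule neuron maturation, stood at 6067, 5682, 5429 and 4754 CPM in members and at 2487 to 3612 CPM in mitotic cells (log2 fold 0.76, SE 0.13, edgeR adjusted p = 1.26e-06). The classes did not overlap. Nfix (0.82) and Sox4, a SoxC factor of young neurons (0.999), rose as well. Sox4 was found in 22.6% of members after thinning and in 23.1% of the microglial or vessel cells, and its call was lost in 6 of 20 alternatives. Nfix lost its call in 6 of 21 and Nfib in 4 of 21, and without tumour 4 both Sox4 and Nfix lost it. Nfic fell by 0.91 on the log2 scale (edgeR adjusted p = 0.0451), a call that was lost in 13 of 19 alternatives, among them without tumour 1, 2 or 4 and under upper-quartile or library-size scaling.

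Of 32 listed tubulin, stathmin and microtubule-associated genes, 23 were tested, 14 rose and 2 fell, with a median log2 fold of 1.46. Stmn2, a microtubule-destabilising protein of growth cones, was at 1356, 2152, 1837 and 1923 CPM in members and at 257, 443, 223 and 185 CPM in mitotic cells. Every member sum lay above every mitotic sum, and the log2 fold was 2.87 (SE 0.22, edgeR adjusted p = 1.55e-20). Stmn4 (2.61), the tau gene Mapt (2.69), the neuronal intermediate filament gene Ina (1.95), Map1b (1.82), Map2 (1.74), Dcx (1.71) and Tuba1a (1.46) also rose. Tubb2a, a neuronal β-tubulin, had 1 of the 5 largest rises overall (3.19).

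Several of these genes stood at different levels in the 2 pairs of libraries. Tubb3, the neuron-specific β-tubulin, was at 500 and 861 CPM in members of tumours 1 and 2 and at 2240 and 1891 CPM in tumours 3 and 4. Mitotic cells held 114, 239, 485 and 390 CPM, so members were higher within each tumour although the pairs differed (log2 fold 2.07, SE 0.22, edgeR adjusted p = 6.77e-14). Gap43, a growth-cone protein, was at 428, 1464, 3310 and 3088 CPM in members and at 171, 409, 708 and 686 CPM in mitotic cells (2.00, edgeR adjusted p = 2.26e-14). After thinning, Tubb3 was found in 15.8% and 26.7% of members in tumours 1 and 2 and in 73.4% and 61.8% in tumours 3 and 4. Stmn2 showed no such split, at 52.6%, 60%, 57.8% and 56.4%.

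The 2 genes of this list that fell were Tuba1b, a widely expressed α-tubulin, and Dclk1, a doublecortin-like kinase. Tuba1b was at 71.4, 86.1, 262 and 459 CPM in members and at 399, 204, 1169 and 1938 CPM in mitotic cells (log2 fold -2.13, edgeR adjusted p = 7.46e-11). Dclk1 had a log2 fold of -1.43 (edgeR adjusted p = 0.00739) and 0 UMIs in members of tumour 1. Stmn1, the stathmin shared by dividing and young neurons, did not pass the test (0.01, edgeR adjusted p = 0.966).

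Of 8 tested axonal adhesion and ankyrin genes, 5 rose and 1 fell. Cadm3, an adhesion protein of axons, was at 286, 258, 464 and 310 CPM in members and at 0, 34.1, 15.4 and 46.9 CPM in mitotic cells (log2 fold 3.13, SE 0.42, edgeR adjusted p = 7.8e-10). Ank2 (2.05) and Ank3 (1.62), ankyrins that anchor membrane proteins to the axonal skeleton, and the adhesion gene Nrcam (0.99) were among the others that rose. Nrcam was near the threshold (edgeR adjusted p = 0.0479) and lost its call in 10 of 18 alternatives, among them without tumour 2, 3 or 4, and its fold was -0.05 in tumours 1 and 2 alone. Cadm1, a synaptic adhesion protein that other cell types also carry, fell by 0.98 on the log2 scale (edgeR adjusted p = 0.0296), a call that was kept in 8 of 15 alternatives and lost without tumour 1 or 2.

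**Figure D3:**
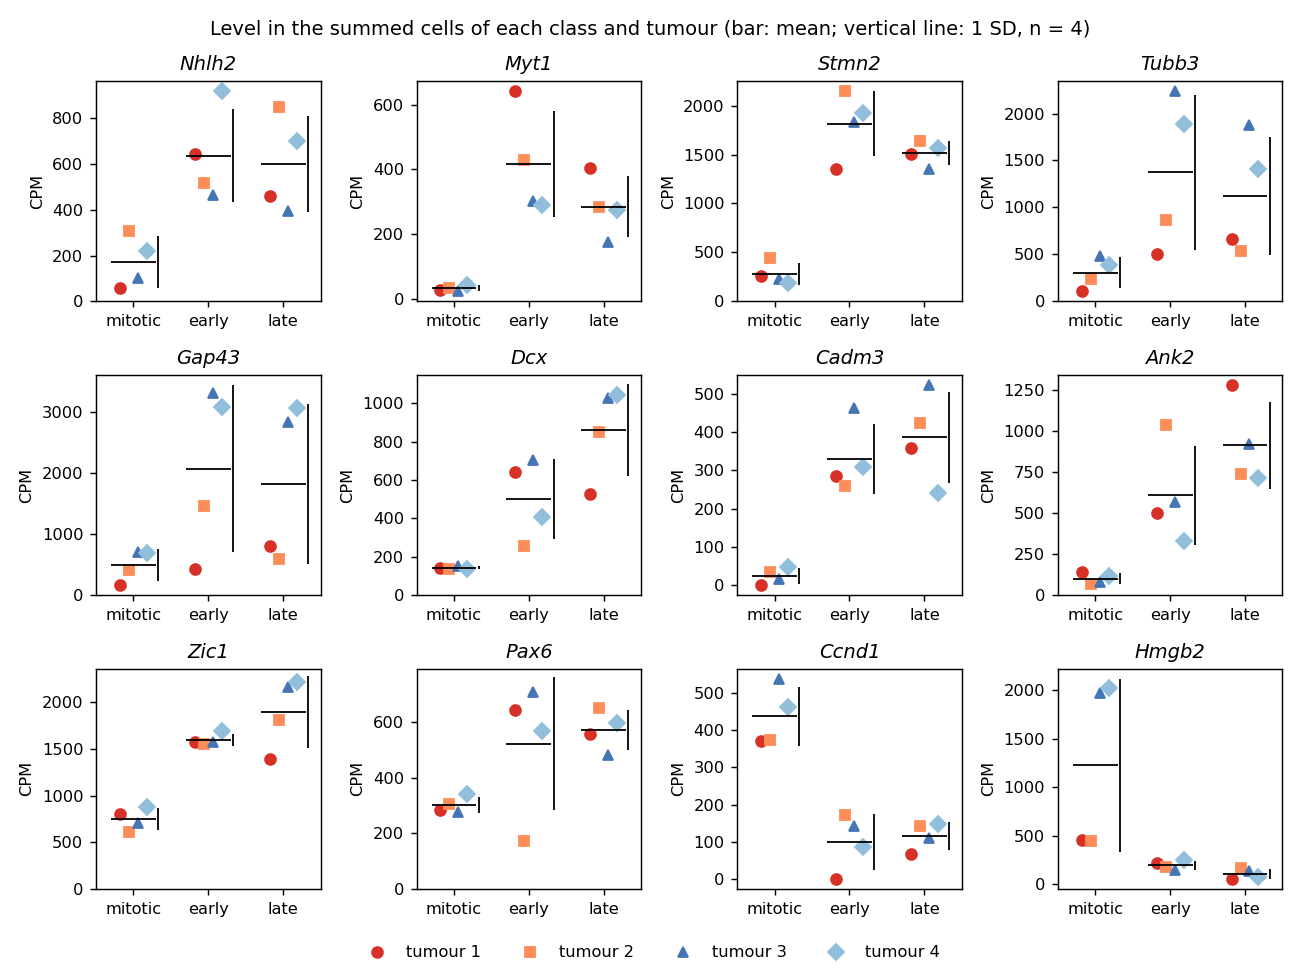
Level of 12 genes in CPM in the summed mitotic, early and late cells of each tumour, with the mean (horizontal line) and 1 SD (vertical line, n = 4 tumours). For Stmn2, Myt1 and Cadm3 all early points lie above all mitotic points, for Ccnd1 and Hmgb2 below, and for all 12 genes the early and late points overlap.

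Of 50 genes in the list of synaptic, channel and receptor genes, 12 were tested and 10 rose, with a median log2 fold of 1.44. The list also holds neuronal RNA-binding and splicing genes such as Elavl3, Elavl4, Celf4 and Rbfox2, so these figures do not describe synaptic genes alone. Elavl4, a neuronal RNA-binding protein, was at 500, 430, 585 and 598 CPM in members and at 57.0 to 102 CPM in mitotic cells (log2 fold 2.73, SE 0.33, edgeR adjusted p = 1.84e-11). The splicing regulator Celf4 (2.05), Rbfox2 (1.73), the synaptotagmin Syt11 (1.64), the AMPA receptor subunit Gria4 (1.49), Elavl3 (1.38) and the calcium channel subunit Cacna2d1 (1.20) rose. Gria4 lost its call in 4 of 18 alternatives and Cacna2d1 in 5 of 21, among them without tumour 4. Among guidance and migration genes 2 of 35 were tested, and both rose: Ppp1r14c, a protein phosphatase inhibitor (1.65), and Sema6a, a transmembrane semaphorin of granule neurons (1.62). Both lost their call without tumour 4. Slc17a6 rose by 1.65 on the log2 scale (edgeR adjusted p = 1.38e-05).

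Of 22 G1/S and replication genes 4 were tested and 2 fell. The gates favoured such falls, and a gene could pass the count filter through mitotic cells, so these values are a description. Ccnd1, the G1 cyclin D1, was at 0, 172, 141 and 85.5 CPM in members, with 0, 2, 7 and 8 UMIs, and at 371, 375, 538 and 463 CPM in mitotic cells (log2 fold -2.33, SE 0.37, edgeR adjusted p = 1.16e-07). Pcna, the replication clamp, fell to a like extent (-2.34). Ccnd2, the cyclin D2 of granule progenitors, stayed at 857, 775, 1292 and 1122 CPM in members against 855 to 1465 CPM in mitotic cells and was not called (-0.35, edgeR adjusted p = 0.172).

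Of 13 SHH pathway genes 2 were tested and both fell. Mycn, a transcription factor induced by SHH, was at 143, 172, 141 and 256 CPM in members and at 171, 273, 438 and 411 CPM in mitotic cells (log2 fold -1.05, SE 0.33, edgeR adjusted p = 0.00931). Sfrp1, a secreted Wnt inhibitor, fell by 0.79 on the log2 scale (edgeR adjusted p = 0.000776) and lost its call in 5 of 21 alternatives, among them without tumour 4. Gli1, the transcriptional effector of the pathway, had 0, 1, 2 and 1 UMIs in members and 8, 9, 11 and 27 in mitotic cells and was not tested. Of 14 cell-cycle exit genes 3 were tested. Tob1, an antiproliferative protein, rose (1.44, edgeR adjusted p = 0.00214), and the cyclin-dependent kinase inhibitor Cdkn1b did not pass (0.26, edgeR adjusted p = 0.436).

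Chromatin genes moved both ways, with 3 rises and 6 falls among 15 tested. Hmgb2, a high-mobility-group protein of dividing cells, was at 214, 172, 141 and 246 CPM in members and at 456, 443, 1969 and 2026 CPM in mitotic cells (log2 fold -3.09, SE 0.29, edgeR adjusted p = 3.13e-16). Hmgn2 (-2.27), the maintenance methyltransferase Dnmt1 (-1.84), Hmgb1 (-1.36), the Polycomb methyltransferase Ezh2 (-1.30) and Hmgn1 (-0.78) fell. The choice of mitotic cells favoured falls of genes of dividing cells such as Hmgb2, so these falls are a description as well. The remodeller Chd7 rose by 0.73 (edgeR adjusted p = 0.00719) and the histone demethylase Kdm6b by 1.26 (0.018). Chd7 lost its call in 8 of 21 alternatives (among them without tumour 3), Hmgn1 in 7 of 21 (without tumour 3 or 4) and Kdm6b in 3 of 14 (without tumour 1). Chd4 did not pass (-0.01, edgeR adjusted p = 0.959). Chd3, a paralog of Chd4 in the nucleosome remodelling and deacetylase complex, rose by 3.37 (edgeR adjusted p = 1.66e-07). Its member level rested on 40 UMIs, at 285, 1033, 202 and 150 CPM, with tumour 2 far above the rest.

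Among the other largest rises were those of Pdzrn3, a ubiquitin ligase (log2 fold 4.61), and Elmo1, a Rac activator in cell migration (3.58). Pdzrn3 had 2, 6, 6 and 17 UMIs in members and 0, 2, 0 and 1 in mitotic cells, so these folds rest on few molecules and depend on the prior count of the fit. Among falls, the rule named 5 genes of the spindle and of replicated chromatin. They passed the count filter through mitotic cells, which were chosen on other mitotic genes that members had to lack, so their values are a description. The spindle kinesin Kif11 had 1, 0, 0 and 1 UMIs in members of tumours 1 to 4 and 9, 22, 54 and 111 in mitotic cells. The linker histone gene Hist1h1b had 0, 2, 2 and 2 UMIs in members, and its levels varied between tumours, at 172 against 239 CPM in tumour 2 and 40.4 against 1592 CPM in tumour 3. The spindle protein gene Nusap1 had 2, 0, 1 and 2 UMIs in members, and stood at 143 against 371 CPM in tumour 1 and at 21.4 against 856 CPM in tumour 4. Ckap2l and Kif4, also of the spindle, had 3 and 2 UMIs in members and 236 and 148 in mitotic cells. All 5 genes were lower in members in 4 of 4 tumours, which the rule for naming them required, and no fold is given at these member counts.

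The second comparison set members against the 281 late cells (111, 42, 52 and 76), which had at least 3 UMIs of the late genes and at most 1 of the mitotic genes. It used the same member sums as the first, so agreement between the 2 comparisons is not independent. The late class was not low in early markers: 213 of its cells (75.8%) also had at least 3 early-marker UMIs. Neurod1 stood at 2906, 3393, 4147 and 4112 CPM in late cells, near its level in members. The comparison therefore sets cells with at most 1 late UMI against cells with at least 3.

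Of the 1217 genes, 1 was called in edgeR (0.0822%), and 74 (6.08%) had an unadjusted p under 0.05. DESeq2 called 0 and found 52 at an unadjusted p under 0.05. The called gene was Dqx1, which encodes a DEAQ-box protein related to RNA helicases. It had 0, 0, 23 and 5 UMIs in members and 6, 2, 67 and 19 in late cells (log2 fold -1.77, SE 0.38, edgeR adjusted p = 0.0114). Its level was set by tumour 3, at 464 CPM in members, 1462 CPM in late cells and 546 CPM in mitotic cells, against at most 218 CPM in any class of the other tumours. A count of 0 allows up to 214 CPM in members of tumour 1 and 258 CPM in tumour 2, which is above the late levels of 56.4 and 56.5 CPM there, so no difference was detectable in those 2 tumours. Without tumour 3 the call was Malat1 alone, and without tumour 4 there was none.

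In every list the number of genes called against late cells was 0. The median log2 fold was 0.00 for the 23 microtubule genes and -0.22 for the 7 proneural factors, against 0.01 over all genes. It was 0.17 for the 9 lineage genes, -0.30 for the 8 adhesion genes and 0.00 for the 15 chromatin genes. For the 12 tested genes of the synaptic, channel and receptor list, which includes RNA-binding genes, it was -0.07. The adhesion list was the only one of these with every fold below 0, from -0.79 for Ank2 to -0.05 for Ank3. A p above the threshold does not show equal levels: among the list genes named next, standard errors ran from 0.21 (Ccnd2) to 0.49 (Grik2 and Dclk1) in log2.

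**Figure D4:**
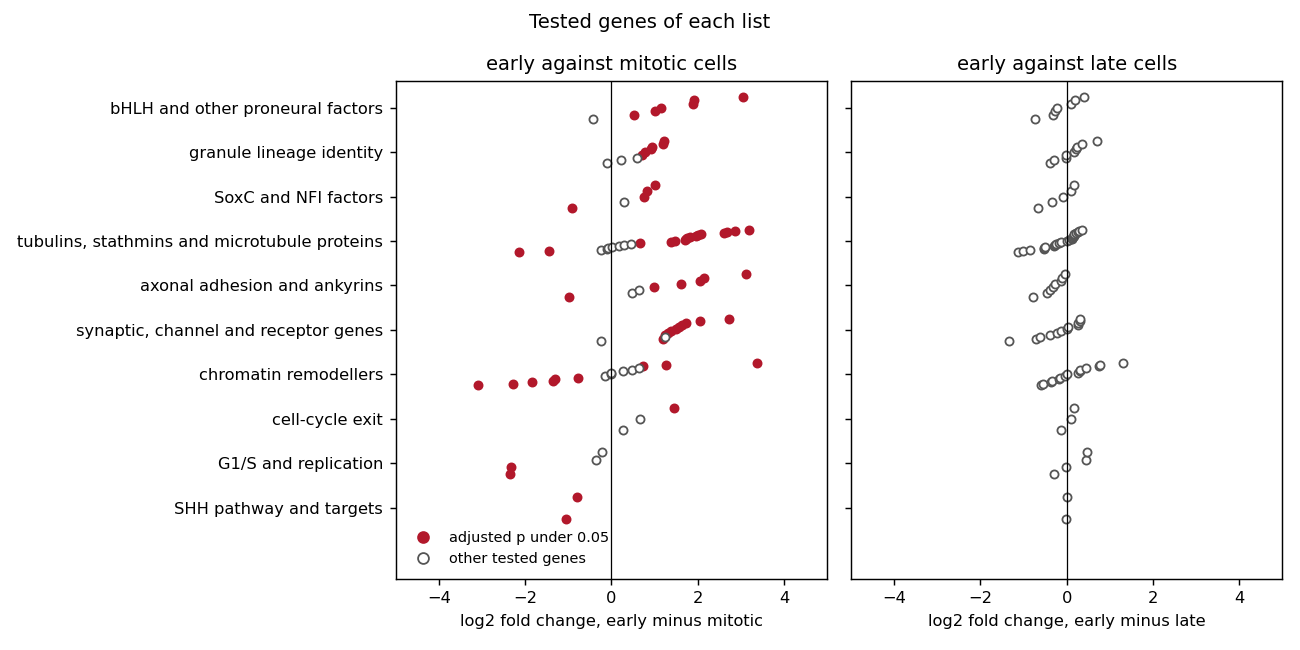
Log2 fold change of each tested gene of 10 lists, early minus mitotic on the left and early minus late on the right. Filled red points have an adjusted p under 0.05. The left panel holds filled points on both sides of 0, and the right panel holds none.

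List genes with an unadjusted p under 0.05 against late cells are named here with their values seen, and none passed adjustment. Dcx, a microtubule protein of migrating neurons, was at 642, 258, 706 and 406 CPM in members and at 527, 848, 1026 and 1042 CPM in late cells (log2 fold -0.84, SE 0.25, edgeR adjusted p = 0.136). Members were lower in 3 of 4 tumours, the exception being the library labelled tumour 1. Without that library Dcx was called, with a log2 fold of -1.10. Mapt was at 357, 172, 303 and 224 CPM in members and at 386, 311, 829 and 481 CPM in late cells (-1.02, edgeR adjusted p = 0.157), lower in all 4 tumours, and was called without tumour 1 (-1.27). Celf4 (-0.72) was also lower in all 4 and called without tumour 1 (-0.94). In mitotic cells Dcx was at 136 to 154 CPM and Mapt at 23.5 to 85.5 CPM, so the level in members lay between the other 2 classes on average for both genes.

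Ank2 (-0.79), the kainate receptor subunit gene Grik2 (-1.35), Dclk1 (-1.13), Id2 (-0.74) and Dpysl2 (-0.54) were the other list genes on the lower side, at edgeR adjusted p from 0.157 to 0.817. On the higher side were Lhx1 (0.70), the remodeller ATPase gene Smarca4 (0.77), Hmgn2 (1.29) and Ccnd2 (0.44). Lhx1 was at 799, 735, 502 and 550 CPM in late cells, below the member level of the same tumour each time, and below all member sums. Smarca4 was at 1285, 1033, 525 and 524 CPM in members and at 790, 537, 153 and 355 CPM in late cells, higher in all 4 tumours (edgeR adjusted p = 0.188). Ccnd2 was higher in all 4 tumours as well. Hmgn2 had 0 UMIs in members of tumours 1 and 2.

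Members with and without a late transcript were set side by side as a description. The microtubule list summed to 257 ± 82.8 UMIs per 10000 in members with 0 late UMIs and to 308 ± 66.8 in those with 1 (mean ± SD over 4 tumours), and was higher in the latter in all 4. The synaptic, channel and receptor list, which includes RNA-binding genes, summed to 72.7 ± 15.7 and 91.5 ± 8.60, also higher in all 4. The adhesion list summed to 41.8 ± 12.5 and 51.5 ± 10.9, again higher with 1 late UMI in all 4. The lineage list was nearly level, at 69.4 ± 15.8 and 73.0 ± 10.4, and higher with 1 late UMI in 1 of 4 tumours. Cells with a late UMI can be deeper, the split uses the values of the rule, and members with 0 late UMIs numbered 6 and 7 in tumours 1 and 2, so no test was made.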

How the data were processed

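The authors deposited 1 table of whole-number UMI counts per tumour, with no normalization; per the submitters' processing notes reads were aligned with STAR and the build was mm10, and the counting tool, its handling of strand and any barcode filter are not given in the sources used here. The tables list 15002 genes. A further 6 tables with 11203 cell columns carry names that fit none of the labelled samples and were left aside. The members and the gene lists were chosen with earlier results of these data known.

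Cells were filtered and classed in Python 3.11.15 as stated in the report, with doublets kept (Scrublet in scanpy 1.11.5 called 3, 4, 4 and 7, none of them members). For tests, the UMIs of each class were added up within each tumour. The sums of 3 classes were fitted together in edgeR 4.0.16 (R 4.3.3; TMM scaling, filterByExpr, robust quasi-likelihood test, Benjamini-Hochberg adjustment at 0.05 over 1217 genes), which draws on limma 3.58.1, with DESeq2 1.42.0 as an alternative. The tumour was a block because its classes come from the same tumour and library. Deviations from class means correlated between members and late cells of tumours 1 to 4 with r of 0.483, 0.314, 0.528 and 0.613, and between members and mitotic cells with r of 0.485, 0.298, 0.612 and 0.676. The standard error of a log2 fold was taken from the F statistic as fold / √F. CPM is the UMI count per 1000000 UMIs of the class in that tumour. Named genes are list members and, per comparison and direction, up to 5 genes with the largest fold among those called, with a mean of at least 50 CPM and the same sign in 4 tumours. Predicted, ribosomal-protein, mitochondrial and rule genes were left out of that choice, and the values of 3 genes that the rule or lists name are not reported here. Intervals are exact (Clopper-Pearson at 95%), and a count of 0 was set to an upper limit of 3 counts. Gene starts and promoter windows are from RefSeq GRCm38.p6, matched by symbol.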

Additional observations from a re-analysis of the deposited data

Results flagged for a closer look

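In 88 groups of 4 member values, 8 had 1 tumour far from the other 3 (by Dixon's 95% criterion on the gap to the nearest value), and chance flags about 1 in 20 groups. In members Pdzrn3 was at 516.6 CPM in tumour 2, above the rest, from 6 UMIs. Chd3 was at 1033 CPM in the same tumour, from 12 UMIs. In tumour 1 Kif11 was high at 71.4 CPM and Nusap1 at 143 CPM, from 1 and 2 UMIs. Myt1l was high in tumour 1 at 428 CPM, and Tcf4 was low there at 1570 CPM. Hmgb1 stood apart in tumour 4 at 481 CPM, and Dqx1 in tumour 3 at 464 CPM. Of these, Dqx1 in tumour 3 was also far above the other tumours in late and mitotic cells.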

How the results depend on the processing

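Against late cells, where 1 gene was called, the count was 0 without the replicate block, with DESeq2, with gates read after thinning and with Neurod1 left out of the gate. It was 2 when cells needed 1000 UMIs and 500 genes or with no mitochondrial limit, and 3 with 0 late and mitotic UMIs or without mitochondrial and ribosomal-protein genes. It was 7 with only the 2 classes fitted, 12 in tumours 3 and 4 alone, and 0 to 9 with 1 tumour left out (9 without tumour 1, 4 without tumour 2, 0 without tumour 4). Against mitotic cells, where 389 were called, the count was 112 without the replicate block, 43 of 267 genes with at least 1000 UMIs, 98 of 639 with 0 late and mitotic UMIs, 590 with thinned gates and 249 without Neurod1 in the gate. It was 35 in tumours 1 and 2 alone, 674 in tumours 3 and 4 alone, and 178 to 565 with 1 tumour left out (195 without tumour 3 and 178 without tumour 4). DESeq2 called 281. The member share of 8.004% was 4.21% with at least 1000 UMIs, 2.54% with 0 late and mitotic UMIs and 3.45% without Neurod1 in the gate. The cause of these shifts was not tested, except that a stricter rule leaves fewer cells and genes. For the 73 listed or rule-named genes called against mitotic cells, 1197 of the alternative values kept direction and call, 192 kept the direction but not the call, and 1 reversed (Nrcam, -0.0489, tumours 1 and 2 alone). Leaving out mitochondrial genes or Neurod1 was chosen after the data were seen. Depth is a limit: members of tumours 1 and 2 hold 14011 and 11615 UMIs, where a count of 0 allows 214 and 258 CPM.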

Other observations

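Of 13 genes outside the lists that were called against late cells in the fit or under some alternative, 5 are given here in full, chosen after their values were seen. Igfbpl1, an insulin-like growth factor binding protein gene of young neurons, was at 1142, 861, 1837 and 1998 CPM in members of tumours 1 to 4 and at 574, 735, 1048 and 1294 CPM in late cells. It was higher in members of every tumour (log2 fold 0.65, SE 0.20, edgeR adjusted p = 0.157) and was called in tumours 3 and 4 alone. Nnat (neuronatin, a small membrane protein of developing neurons) was at 1998, 1464, 1816 and 2318 CPM in members and at 1542, 876, 873 and 1409 CPM in late cells. Its members were higher in every tumour too (0.64, SE 0.19, edgeR adjusted p = 0.157), and it was called without tumour 1. In mitotic cells Igfbpl1 was at 257 to 1009 CPM and Nnat at 428 to 988 CPM.

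Ppp3ca, the calcineurin catalytic subunit gene, was at 357, 258, 666 and 385 CPM in members and at 423, 537, 1353 and 871 CPM in late cells, lower in each tumour (log2 fold -0.98, SE 0.25, edgeR adjusted p = 0.0898). The immediate-early gene Fos was at 357, 0, 242 and 171 CPM in members and at 132, 84.8, 1266 and 309 CPM in late cells (-1.32, SE 0.37, edgeR adjusted p = 0.136). Egr1, another immediate-early gene, was at 714, 344, 585 and 203 CPM in members and at 423, 537, 1266 and 596 CPM in late cells (-0.94, SE 0.28, edgeR adjusted p = 0.136). Both were higher in members in tumour 1 and lower in tumours 3 and 4, and both were called without tumour 1. In members of tumour 2 the 0 UMIs of Fos allow 258 CPM. Serpine2, a secreted protease inhibitor gene, had 0 UMIs in members of all 4 tumours and 35, 1, 7 and 14 in late cells; it was too low for the filter and was called under 3 alternatives. Aplp2 and Eprs were called under 2 alternatives each, and Atp2b1, Celf2 and Dbi under 1 each. Their fitted folds were negative there, but each of these genes except Aplp2 was higher in members in at least 1 tumour.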
